A study of Mus musculus with 4 samples.

Results

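Eicosanoid, steroid and xenobiotic metabolism genes were taken as the rows of the deposited table of differing genes whose KEGG pathway text names any of 8 terms. The terms were arachidonic acid metabolism, serotonergic synapse, chemical carcinogenesis, linoleic acid metabolism, steroid hormone biosynthesis, retinol metabolism, drug metabolism, and metabolism of xenobiotics. Of 43 matching rows, 2 that also carry the text for neuroactive ligands and receptors were dropped by the rule. This left 41 genes of the 1593 listed, of which 432 have any KEGG text. The samples are cultures of 46C, a line of mouse embryonic stem cells with a green fluorescent reporter at Sox1, and their RNA was sequenced. Every culture was kept for 24 h in serum that contained 1 µM of the MEK inhibitor PD0325901. The PD group (2 libraries) had no further compound, and the PC group (2 libraries) also had CID755673, an inhibitor of protein kinase D, at a dose that the labels do not give. Whether libraries of a group came from separate cultures is not in the labels, so the spread behind each p-value is that between these libraries and may be technical.

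Arachidonic acid is cut from membrane lipids by phospholipases and then oxidized along separate branches. Cyclooxygenases lead to prostanoids, lipoxygenases to leukotrienes and hydroxy acids, and some cytochromes P450 to epoxides. The cytochromes P450, aldehyde and flavin oxidases also act on steroids, retinoids and drugs, and transferases then attach glucuronic acid or glutathione so that the products can leave the cell. KEGG places cyclooxygenases and lipoxygenases in its serotonergic synapse map. That map is among the terms of the rule, so the genes here include serotonin receptor, transporter and channel genes. These pathways are best known from liver, gut, skin and blood cells.

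The table had been selected on the comparison it reports: in the authors' deposited table each listed gene differs by 1 or more on the log2 scale and has a p-value no larger than 0.0498. The separation of the groups in a listed gene is therefore nearly fixed. In all 41 genes the PD and PC libraries did not overlap, which also held for 99.7% of all listed genes, and nothing is read from that count. Values are normalized reads, meaning reads divided by 1 size factor per library. Differences are PC minus PD on the log2(normalized reads + 1) scale, which understates changes of low genes. A gene was called where its limma p, adjusted by Benjamini-Hochberg over the 31432 genes the authors tested, was under 0.05. Depth of the whole libraries is unknown. Recovered reads on listed genes, which are not the depth, numbered between 433684 (PC replicate 2) and 683777 (PD replicate 2). Markers of the cell types the cultures could hold were largely outside the table. Of 8 embryonic stem cell markers only Utf1 was listed, and of 8 hepatocyte markers only Apob, so the labelled cell type could not be checked further. Utf1, a chromatin factor, was at 6644 and 7460 normalized reads in PD and at 1787 and 1894 in PC, and it was called lower (limma, Benjamini-Hochberg adjusted p = 0.0122).

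Of the 41 genes, 34 (82.9%) had lower values in PC and 7 (17.1%) had higher values, beside 61.5% and 38.5% of all listed genes. limma called 8 of the 41 (19.5%), beside a background of 31.1% of all listed genes. It called 3 genes higher (7.32%, background 11.2%) and 5 lower (12.2%, background 19.8%). The 3 that rose were the steroid enzyme gene Cyp17a1, the potassium channel gene Kcnj6 and the glucuronosyltransferase gene Ugt1a10. The 5 that fell were the peroxidase gene Gpx3, the lipoxygenase gene Alox5, the oxidase gene Aox4, the aldehyde dehydrogenase gene Aldh3a1 and the esterase gene Ces2b. By the false discovery rate of the authors' deposited table, 29 of the 41 (70.7%) passed 0.05, against 70.2% of all listed genes. Of those, 26 were lower (63.4%, background 43.9%) and 3 were higher (7.32%, background 26.4%). Both procedures called Aldh3a1, Alox5, Aox4, Gpx3 and Ugt1a10, 12.2% of the 41 beside 27.7% of the listed genes.

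Of the 41 genes 4 (9.76%) had 0 reads in both libraries of a group, beside 5.9% of the listed genes. The median mean over the 4 libraries, not scaled by gene length, was 37.1 normalized reads, against 55.1 for the listed genes. Gpx3 had the most, 3046, and 13 of the 41 (31.7%) reached 100, beside 37.5% of the listed genes. Of these 13 abundant genes 4 were called (30.8%), whereas 62.0% of the abundant listed genes were called. The median log2 difference was -1.24, beside -1.17 over the listed genes, and without the size factors it was -1.31 beside -1.25. The single differences ran from -3.74 for Ggt5 to 4.17 for Ugt1a10. The median SE was 0.34, close to the 0.33 of the listed genes. The PD libraries differed from each other beyond counting error, by exact 95% intervals, in 11 of the 41 genes (26.8%), and the PC libraries in 7 (17.1%). Among listed genes these shares were 27.2% and 27.1%. The intervals cover counting error only, since the reads are not independent molecules.

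**Figure D1:**
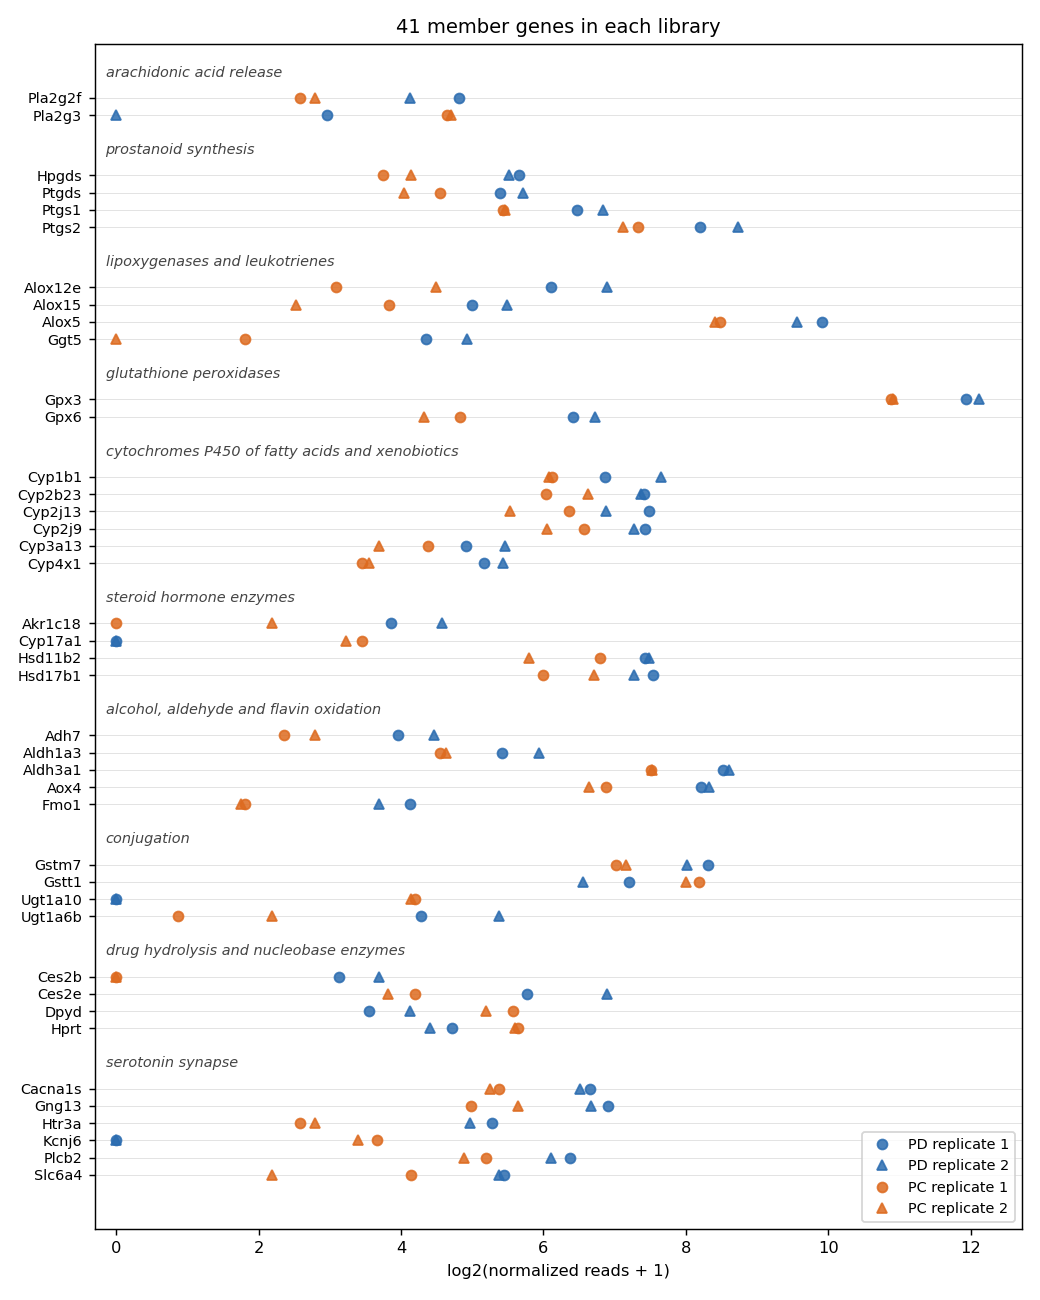
Level of each of the 41 genes in each of the 4 libraries, as log2(normalized reads + 1), grouped by role (PD blue, PC orange, circles replicate 1, triangles replicate 2). The PC symbols lie left of the PD symbols in 34 genes and right of them in 7, and Cyp17a1, Kcnj6 and Ugt1a10 sit at 0 in both PD libraries.

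**Figure D2:**
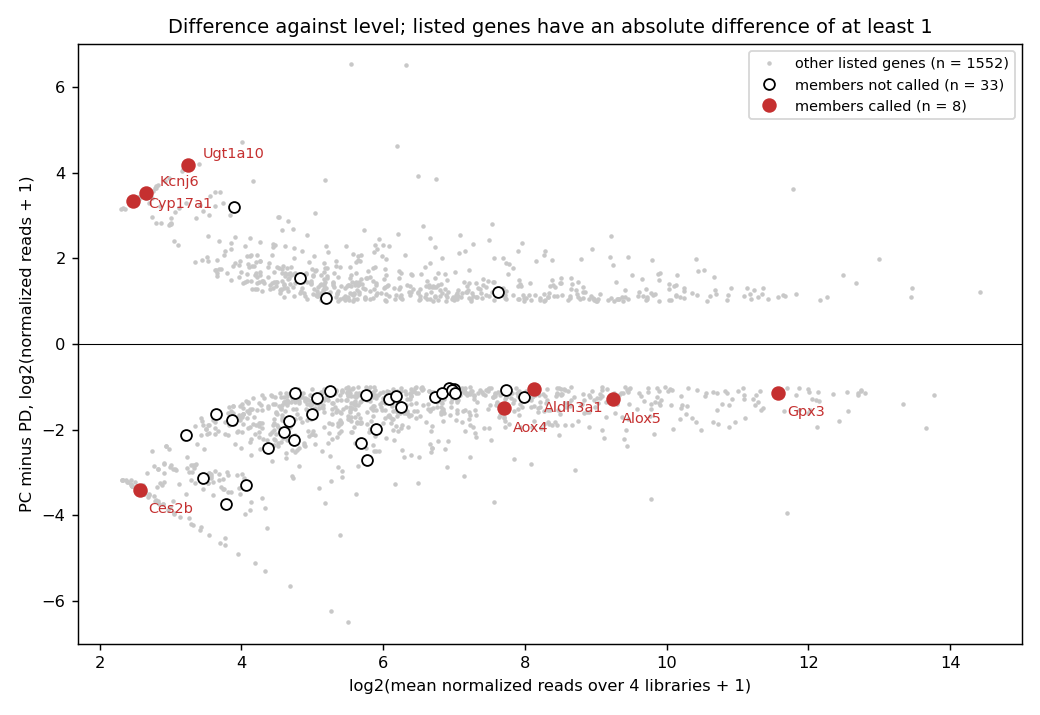
Difference (PC minus PD on the log2 scale) against mean level, also on a log2 scale, for the 41 genes (circles, red where called) and the other 1552 listed genes (grey points), with 1 listed gene outside the vertical axis. The empty band around 0 is the selection of the table, and the called genes lie at both ends of the level range, with Gpx3 at the right and Cyp17a1, Kcnj6, Ugt1a10 and Ces2b at the left.

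The secreted phospholipases that release arachidonic acid were both low and had opposite signs. Pla2g3 was at 6.79 and 0 normalized reads in PD and at 24.0 and 25.0 in PC. Pla2g2f was at 27.2 and 16.5 in PD and at 4.97 and 5.95 in PC. Neither passed (limma, Benjamini-Hochberg adjusted p = 0.532 and 0.271), and the PD libraries of Pla2g3 differed beyond counting error.

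All 4 listed genes of prostanoid synthesis had lower values in PC, beside 61.5% of all listed genes. limma called 0 of the 4, beside 31.1% of all listed genes. Each had an unadjusted p under 0.05, as did all 41 genes and 1541 of the 1593 listed genes. The selection of the table nearly fixes that count. Ptgs2, the inducible cyclooxygenase, was at 292.8 and 423.4 normalized reads in PD and at 159.9 and 138.0 in PC. Its PD libraries differed from each other beyond counting error. The ratio of the means (358 ± 92.3 in PD and 149 ± 15.5 in PC, SD, n = 2 each) was 2.40, with a log2 difference of -1.24 (SE 0.22, limma, Benjamini-Hochberg adjusted p = 0.102). The authors' deposited table gives Ptgs2 a false discovery rate of 5.82e-06, so the call depends on the test. Ptgs1, the constitutive cyclooxygenase, was at 87.3 and 113.6 in PD and at 42.3 and 42.8 in PC. Of the prostaglandin D synthases, Hpgds, the glutathione-dependent form, had means of 47.2 ± 3.21 and 14.5 ± 2.99, and Ptgds, the lipocalin-type form, 46.0 ± 7.49 and 18.9 ± 4.88. Summed over the 4 genes, PD held 470 and 633 normalized reads and PC 237 and 213.

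The 4 genes of the lipoxygenase and leukotriene branch all had lower values in PC, and 1 of them fell. Of all listed genes 61.5% had lower values and 19.8% were called lower. Alox5, the enzyme of the first step to leukotrienes, was at 965.8 and 756.1 normalized reads in PD and at 356.2 and 340.2 in PC. The PC libraries lay close together, while the PD libraries differed beyond counting error. The log2 difference of Alox5 was -1.29 (SE 0.15, limma, Benjamini-Hochberg adjusted p = 0.0267), with means in a ratio of 2.47 (861 ± 148 and 348 ± 11.3). Alox12e, the epidermal lipoxygenase, was at 67.9 and 118.2 in PD and at 7.46 and 21.4 in PC, and both pairs of libraries differed beyond counting error. Alox15, which oxidizes both arachidonic and linoleic acid, was at 31.0 and 44.0 in PD and at 13.3 and 4.76 in PC. Neither passed (limma, Benjamini-Hochberg adjusted p = 0.193 and 0.374). Alox12e and Alox15 lie 21.5 kb apart on chromosome 11, and their coding sequences are 71.8% identical. Ggt5, which trims the glutathione part of leukotrienes, had 20 and 32 reads in PD and 3 and 0 in PC. The ratio of its pooled normalized reads, PD over PC, was 16.7 with an exact 95% counting interval of 5.41 to 83.7, and it was not called (limma, Benjamini-Hochberg adjusted p = 0.117).

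**Figure D3:**
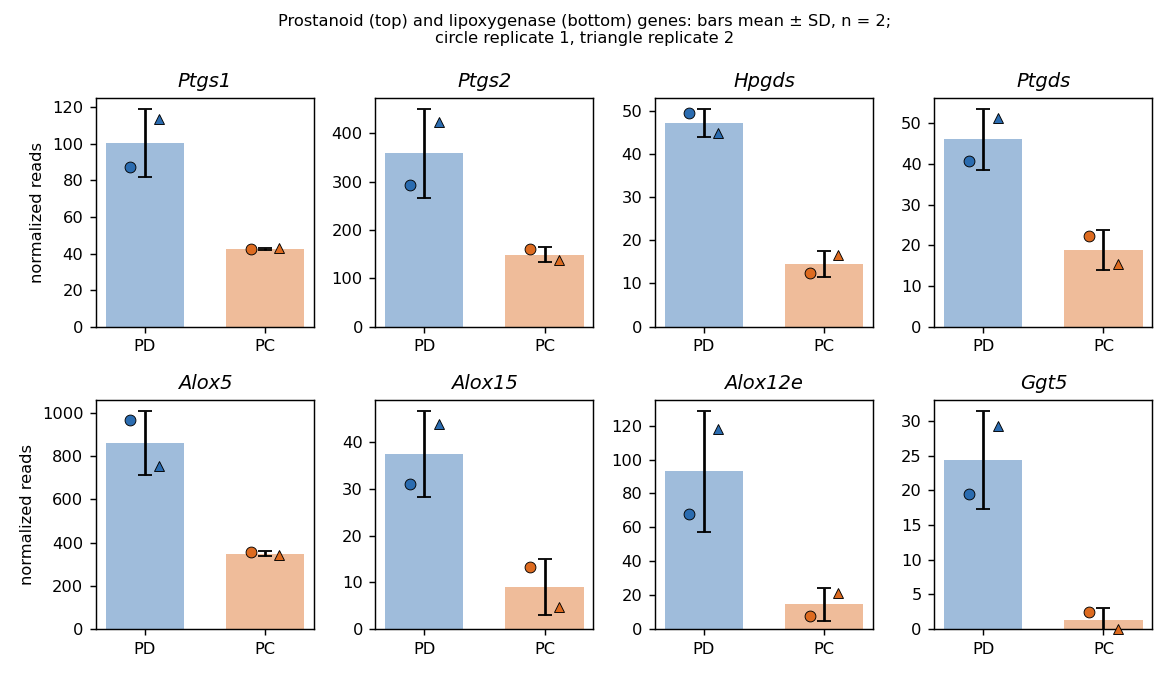
Normalized reads of 4 prostanoid genes (top row) and 4 genes of the lipoxygenase branch (bottom row) in PD and PC, each panel on its own linear axis from 0, with bars at the mean, error bars of 1 SD (n = 2, cut at 0 for Ggt5) and the libraries as symbols. Both PC libraries lie below both PD libraries in every panel. The groups also did not overlap in 99.7% of all listed genes, so nothing is read from this. Among these 8 genes limma called Alox5.

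Glutathione peroxidases reduce lipid hydroperoxides, among them those that lipoxygenases make. Gpx3, the secreted form of plasma, was at 3926 and 4450 normalized reads in PD and at 1887 and 1919 in PC. The PC libraries were almost equal, while the PD libraries differed beyond counting error. Its log2 difference was -1.13 (SE 0.10, limma, Benjamini-Hochberg adjusted p = 0.0142), from 4188 ± 371 to 1903 ± 22.3, a 2.20-fold ratio. Gpx6, a form known from the olfactory epithelium, was at 84.4 and 104.5 in PD and at 27.3 and 19.0 in PC, with a ratio of 4.07 that was not called (limma, Benjamini-Hochberg adjusted p = 0.0751). Their coding sequences are 71.5% identical, and neither shares a run of 50 bases with another annotated gene.

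The 6 cytochromes P450 that act on fatty acids or foreign compounds all had lower values in PC, and limma called 0 of them. Among all listed genes, 61.5% had lower values and 31.1% were called by limma. By the false discovery rate in the authors' deposited table, however, 5 of the 6 passed 0.05, as did 70.2% of all listed genes. Cyp1b1, which oxidizes estradiol and aromatic hydrocarbons and is induced through the aryl hydrocarbon receptor, was at 115.4 and 200.7 normalized reads in PD and at 68.8 and 66.6 in PC. The PC libraries agreed within counting error and the PD libraries did not. The ratio of its means was 2.33 (log2 difference -1.16, SE 0.31, limma, Benjamini-Hochberg adjusted p = 0.335). Enzymes of the Cyp2j subfamily oxidize arachidonic acid. Cyp2j9 was at 170.7 and 154.0 in PD and at 93.6 and 65.4 in PC, and Cyp2j13 at 177.5 and 116.4 in PD and at 81.2 and 45.2 in PC. For both, PC replicate 2 lay below PC replicate 1 beyond counting error, and neither passed (limma, Benjamini-Hochberg adjusted p = 0.223 and 0.48, log2 differences -1.04, SE 0.24, and -1.23, SE 0.37). The 2 genes lie 491 kb apart on chromosome 4 with 81.0% identical coding bases. Cyp2b23, of the phenobarbital-inducible subfamily, was at 169.7 and 165.0 in PD and at 64.6 and 97.5 in PC, a log2 difference of -1.07 (SE 0.25, limma, Benjamini-Hochberg adjusted p = 0.24). Here the PC libraries differed beyond counting error in the other direction. Cyp3a13, of the main drug-oxidizing subfamily, and Cyp4x1, with roles less known, had means of 36.1 ± 9.89 and 38.5 ± 5.13 in PD and 15.9 ± 5.65 and 10.3 ± 0.541 in PC.

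Of the 4 steroid hormone enzymes, Cyp17a1 rose and the other 3 had lower values in PC without passing. Of all listed genes 61.5% had lower values and 11.2% were called higher. Cyp17a1, which makes the precursors of androgens, had 0 reads in both PD libraries and 12 and 7 reads in PC. Its PC mean of 9.13 ± 1.14 normalized reads was at least 3.23-fold higher than the PD floor, which was set at 3 reads for each library (limma, Benjamini-Hochberg adjusted p = 0.0172). Its false discovery rate in the authors' deposited table is 0.134, which does not pass 0.05. Hsd11b2, which inactivates glucocorticoids, was at 170.7 and 177.8 in PD and at 110.2 and 54.7 in PC. Hsd17b1, which makes estradiol from estrone, was at 185.2 and 154.0 in PD and at 63.0 and 103.5 in PC. For both, the PC libraries differed from each other beyond counting error, and in opposite order. Neither passed (limma, Benjamini-Hochberg adjusted p = 0.506 and 0.375, log2 differences -1.15, SE 0.35, and -1.06, SE 0.29). Akr1c18, which inactivates progesterone, had 14 and 25 reads in PD and 0 and 3 in PC, a pooled ratio of 12.5 (exact 95% counting interval 3.99 to 63.4, limma, Benjamini-Hochberg adjusted p = 0.314).

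The 5 alcohol, aldehyde and flavin oxidation genes all had lower values in PC, and 2 fell. Of all listed genes 61.5% had lower values and 19.8% were called lower. Aox4, an aldehyde oxidase that can turn retinaldehyde into retinoic acid, was at 296.7 and 318.0 normalized reads in PD and at 116.8 and 98.7 in PC. It fell with a log2 difference of -1.51 (SE 0.16, limma, Benjamini-Hochberg adjusted p = 0.0211), from 307 ± 15.1 to 108 ± 12.8, a 2.85-fold ratio. In neither group did its libraries differ beyond counting error. Aldh3a1, which detoxifies aldehydes from lipid peroxidation and is abundant in the cornea, was at 366.5 and 388.6 in PD and at 181.4 and 183.2 in PC. It fell by 1.05 (SE 0.12, limma, Benjamini-Hochberg adjusted p = 0.0288), from 378 ± 15.6 to 182 ± 1.25, a 2.07-fold ratio, with the libraries of each group close together. The remaining 3 were low. Adh7, which oxidizes retinol, had means of 17.8 ± 4.62 and 5.05 ± 1.28, Aldh1a3, which makes retinoic acid, 51.1 ± 13.3 and 23.1 ± 1.01, and the flavin monooxygenase Fmo1 14.2 ± 3.23 and 2.43 ± 0.0751.

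The glucuronosyltransferases Ugt1a10 and Ugt1a6b had opposite signs in the table, and they are parts of the Ugt1 locus, where alternative first exons are joined to shared later exons. In GENCODE M21 on GRCm38 both lie on the plus strand of chromosome 1. The first exon of Ugt1a10 is chr1:88055411-88056336 and the first coding exon of Ugt1a6b is chr1:88106941-88107799. Exons of 132, 88 and 220 bases then follow that are the same in 8 other Ugt1a genes each. The coding sequences, of 1590 bases in Ugt1a10 and 1593 in Ugt1a6b without the stop codon, are identical over the last 737 bases. The stretch around the point where they become the same is shown because only reads from the part before it can separate these genes. It runs from coding base 797 to 886 of Ugt1a6b and from 794 to 883 of Ugt1a10, with the shared bases in capitals:
Ugt1a6b: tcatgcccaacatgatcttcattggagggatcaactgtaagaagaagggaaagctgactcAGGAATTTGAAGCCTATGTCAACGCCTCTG
Ugt1a10: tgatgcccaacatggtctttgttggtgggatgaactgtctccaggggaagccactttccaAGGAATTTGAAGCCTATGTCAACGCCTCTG

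Ugt1a10 was at 0 reads in both PD libraries, whereas PC replicates 1 and 2 had 21 and 14. Its PC mean of 17.0 ± 0.526 normalized reads was at least 6.02-fold higher than that PD floor (limma, Benjamini-Hochberg adjusted p = 0.0142). Ugt1a6b had 19 and 44 reads in PD and 1 and 3 in PC, and it was not called (limma, Benjamini-Hochberg adjusted p = 0.145), with a pooled ratio of 15.2 and an exact 95% counting interval of 5.65 to 57.5. The sum of both genes was 18.4 and 40.3 normalized reads in PD and 18.2 and 20.2 in PC. The lower PD sum thus lay between the PC sums. Of all runs of 50 bases in the transcripts, 67.1% of those of Ugt1a10 and 79.8% of those of Ugt1a6b also occur in other genes. The sources used here do not say how the authors' counting assigned reads of the shared exons, so the single values of both genes are uncertain.

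The other conjugating enzymes were glutathione transferases, which attach glutathione to electrophiles. Gstm7 was at 316.1 and 256.6 normalized reads in PD and at 129.2 and 141.6 in PC, a ratio of 2.11 and a log2 difference of -1.07 (SE 0.17, limma, Benjamini-Hochberg adjusted p = 0.0717). Gstt1 was at 146.4 and 92.6 in PD and at 290.8 and 255.8 in PC, a ratio of 2.29 with PC higher and a log2 difference of 1.22 (SE 0.25, limma, Benjamini-Hochberg adjusted p = 0.172). For both, the PD libraries differed beyond counting error and neither was called by limma, although both passed 0.05 by the false discovery rate of the authors' deposited table. Gstt1 was the only abundant gene of the 13 with higher values in PC. Gstt1 and Ggt5 lie 167 kb apart on chromosome 10 and differed in sign.

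Among drug-hydrolysing and nucleobase enzymes, Ces2b fell. This carboxylesterase had 8 and 13 reads in PD and 0 in both PC libraries, so the PD mean exceeded the PC floor, set at 3 reads for each library, and Ces2b was at least 3.25-fold lower in PC (limma, Benjamini-Hochberg adjusted p = 0.0212). Its PD mean was 9.84 ± 2.94 normalized reads, and its false discovery rate in the authors' deposited table is 0.12. Ces2e, a related esterase 86.2 kb away on chromosome 8 with 84.1% identical coding bases, was at 53.3 and 118.2 in PD and at 17.4 and 13.1 in PC. Its PD libraries differed beyond counting error, and it was not called (limma, Benjamini-Hochberg adjusted p = 0.165). Dpyd, which breaks down uracil and the drug fluorouracil, was at 10.7 and 16.5 in PD and at 46.4 and 35.7 in PC. Hprt, the purine salvage enzyme that activates thiopurines, was at 25.2 and 20.2 in PD and at 48.9 and 47.6 in PC. Neither passed (limma, Benjamini-Hochberg adjusted p = 0.324 and 0.474). The parent line of 46C is known for a selected loss of Hprt function, whose part in these values was not tested.

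Of the 6 genes with only the serotonergic synapse role, 5 had lower values in PC and Kcnj6 rose. Of all listed genes 61.5% had lower values and 11.2% were called higher. Kcnj6, a potassium channel opened by G proteins, had 0 reads in both PD libraries and 14 and 8 in PC. Its PC mean of 10.6 ± 1.47 normalized reads was at least 3.73-fold higher than that PD floor (limma, Benjamini-Hochberg adjusted p = 0.0157), and its false discovery rate in the authors' deposited table is 0.0854. Htr3a, the serotonin-gated ion channel, was at 37.8 and 30.2 in PD and at 4.97 and 5.95 in PC, a ratio of 6.23 that was not called (limma, Benjamini-Hochberg adjusted p = 0.0732). Slc6a4, the serotonin transporter, was at 42.7 and 40.3 in PD and at 16.6 and 3.57 in PC, and the PC libraries differed beyond counting error. The calcium channel gene Cacna1s and the G protein subunit gene Gng13 had PD means of 95.3 ± 6.47 and 110 ± 13.1 and PC means of 38.7 ± 2.63 and 39.7 ± 12.8. The phospholipase C gene Plcb2 was at 81.5 and 67.8 in PD and at 35.6 and 28.6 in PC. None of these 3 was called. Exons of Gng13 overlap those of Chtf18 on the other strand over 51.6% of their bases. Without a stated strand setting, reads from that overlap cannot be assigned to either gene.

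Wider lists of the same pathways, chosen with earlier results of these data known, added few listed genes. All 5 listed of 24 genes of arachidonic acid release and prostanoids, all 5 of 19 of lipoxygenases and leukotrienes, all 4 of 38 of steroid synthesis, all 5 of 44 of xenobiotic phase I and the 1 of 10 of serotonin synthesis and breakdown are among the genes above. Of 47 phase II genes 6 were listed, and the addition was Gclm, a subunit of the enzyme that limits glutathione synthesis, at 1542 ± 338 in PD and 3148 ± 54.8 in PC (limma, Benjamini-Hochberg adjusted p = 0.0683). Of 24 xenobiotic and lipid sensor genes 2 were listed. Vdr, the vitamin D receptor, fell from 305 ± 9.84 to 104 ± 0.632 normalized reads (log2 difference -1.54, SE 0.14, limma, Benjamini-Hochberg adjusted p = 0.0149), and Nr1h4, the bile acid receptor, was at 71.7 ± 17.8 and 32.6 ± 12.5 and did not pass.

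Of 22 eicosanoid receptor and transporter genes 6 were listed, all with lower values in PC, and 3 fell, beside 61.5% lower and 19.8% called lower of all listed genes. The drug efflux pump gene Abcb1a fell from 1861 ± 186 to 882 ± 69.6 normalized reads (limma, Benjamini-Hochberg adjusted p = 0.0224). Abcc2, an exporter of glucuronide and glutathione conjugates, fell from 238 ± 7.50 to 76.3 ± 18.7 (limma, Benjamini-Hochberg adjusted p = 0.0431). Ptgfr, the prostaglandin F receptor, had a PD mean of 8.97 ± 1.02 and 0 reads in both PC libraries (limma, Benjamini-Hochberg adjusted p = 0.0172). The leukotriene receptor genes Ltb4r1, Ltb4r2 and Cysltr2 had PD means of 122 ± 0.203, 173 ± 20.2 and 59.9 ± 4.39 and PC means of 60.9 ± 18.2, 32.4 ± 13.9 and 19.8 ± 2.25, and were not called.

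On a chosen list of retinoid metabolism genes 3 of the 4 listed had lower values in PC, beside 61.5% of all listed genes. Stra6, which is also on the list of retinoic acid targets, had higher values. Of 39 retinoid metabolism genes 4 were listed: Adh7 and Aldh1a3 above, the retinol-binding protein gene Rbp2 at 23.0 ± 3.75 and 7.48 ± 1.20, and the retinol transporter gene Stra6 at 80.5 ± 5.45 and 209 ± 40.5. limma called 0 of the 4, beside 31.1% of all listed genes. All 4 had an unadjusted p under 0.05, as did 1541 of the 1593 listed genes. The list does not hold Aox4 and Ugt1a10, which carry the KEGG term retinol metabolism and were called lower and higher. Of 20 retinoic acid receptor and target genes 7 were listed, all with higher values in PC, and 6 rose, among them Rec8, Stra8 and Tgm2. Of all listed genes 38.5% had higher values and 11.2% were called higher, and this list was chosen with earlier results known. The transglutaminase gene Tgm2 rose from 337 ± 44.1 to 913 ± 74.3 normalized reads. None of the 7 belongs to the 41 genes.

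Markers of other cell types that use these pathways were nearly all outside the table and are not analysed here. The hepatocyte marker Apob, 1 listed of 8, fell, from 432 and 440 normalized reads in PD to 147 and 168 in PC (limma, Benjamini-Hochberg adjusted p = 0.015). The leukocyte marker Cd3e, 1 of 5, was at 299 and 250 in PD and 132 and 131 in PC. The epithelial marker Krt5, 1 of 6, was at 31.0 and 14.7 in PD and at 0 and 3.57 in PC, the fibroblast marker Col3a1, 1 of 8, at 89.2 and 113.6 in PD and 38.9 and 48.8 in PC, and the trophoblast marker Gata3, 1 of 8, at 380 and 384 in PD and 195 and 133 in PC. The extra-embryonic endoderm markers Gata6 and Sox17, 2 of 10, summed to 221 and 210 in PD and 466 and 512 in PC. Of these Gata6 rose from 189 ± 6.19 to 424 ± 61.7 (limma, Benjamini-Hochberg adjusted p = 0.0401), and Sox17 was at 26.9 ± 1.74 and 65.1 ± 29.8 and was not called (limma, Benjamini-Hochberg adjusted p = 0.743). The part of other cell types in the differences of the 41 genes was not tested. In these bulk samples fewer cells of a type and less RNA per cell cannot be told apart.

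All 41 genes are protein coding in GENCODE M21, and 22 share no run of 50 bases with another gene, among them Gpx3, Alox5, Aldh3a1 and Cyp17a1 of the called genes. Of the other called genes, Ugt1a10 shares 67.1% of such runs, Ces2b 9.66%, Kcnj6 4.34% and Aox4 4.02%. Among genes not called, Cacna1s shares 16.3% and Cyp4x1 14.9%. Exons of 10 of the 41 genes overlap a gene on the other strand. Among them are Cacna1s over 20.0%, Cyp4x1 over 10.7%, Aox4 over 5.61% and Kcnj6 over 4.98% of their exon bases. RefSeq promoters (GRCm38.p6, 250 bases before to 50 after the start) were found for 28 of the 41 genes, 32 promoters in all. The letters GCGTG, the core of the element bound by the aryl hydrocarbon receptor, occur on either strand in 12 of the 32 (37.5%), beside 36.9% of the promoters of listed genes and 32.4% of all 32851 promoters. AGGTCA, the nuclear receptor site, occurs in 2 (6.25%, beside 16.6% and 16.3%), and TGACNNNGC, the core of the antioxidant element, in 4 (12.5%, beside 13.0% and 12.4%). None of the 3 motifs contains another. The median GC content was 55.3%, beside 56.3% for listed genes and 52.7% for all. The promoters of the inducible genes Cyp1b1 (chr17:79715012-79715311, minus strand) and Ptgs2 (chr1:150099781-150100080, plus strand) are shown as examples that hold the letters GCGTG, in capitals, read as CACGC from the other strand in Cyp1b1:
Cyp1b1: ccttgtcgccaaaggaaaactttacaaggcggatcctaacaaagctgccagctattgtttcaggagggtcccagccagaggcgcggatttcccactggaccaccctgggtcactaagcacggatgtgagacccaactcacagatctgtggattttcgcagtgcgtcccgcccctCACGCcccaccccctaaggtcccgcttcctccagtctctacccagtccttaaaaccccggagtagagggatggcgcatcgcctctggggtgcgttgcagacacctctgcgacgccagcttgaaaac
Ptgs2: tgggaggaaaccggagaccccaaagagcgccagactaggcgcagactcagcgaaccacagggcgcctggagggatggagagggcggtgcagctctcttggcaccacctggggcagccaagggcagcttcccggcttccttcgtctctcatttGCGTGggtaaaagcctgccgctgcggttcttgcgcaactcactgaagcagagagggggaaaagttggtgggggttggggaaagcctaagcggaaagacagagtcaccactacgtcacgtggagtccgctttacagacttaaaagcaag

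**Figure D4:**
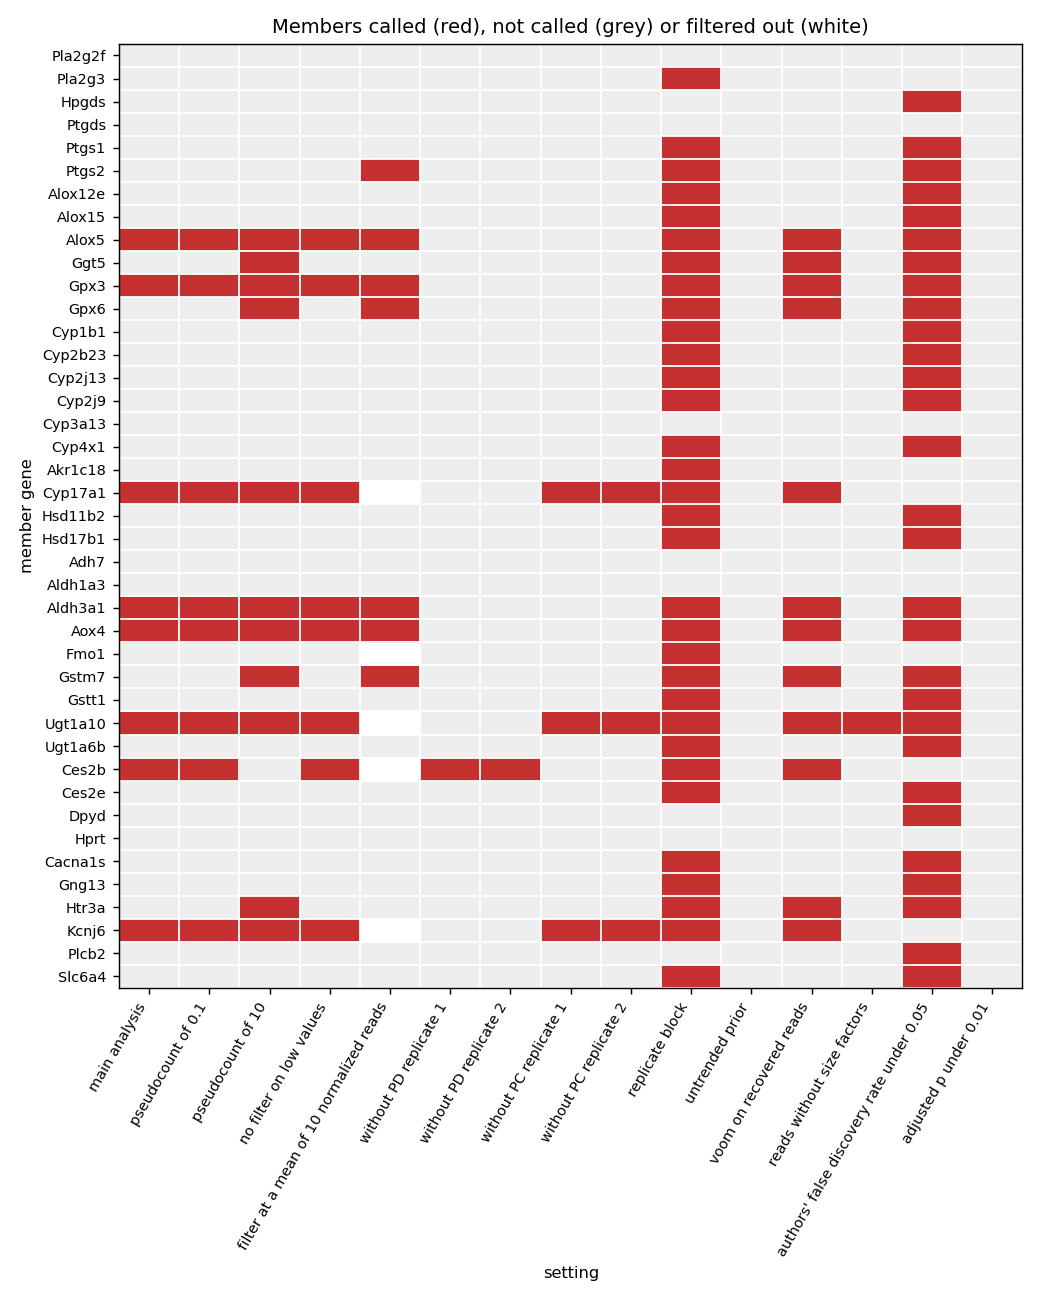
Calls of each of the 41 genes (vertical axis) under the main analysis and 14 alternatives (horizontal axis), red where called, grey where not and white where filtered out. Gpx3, Alox5, Aldh3a1 and Aox4 were called in 8 columns each. Of the genes at 0 reads in a group, Ugt1a10 was called in 10, Cyp17a1 and Kcnj6 in 8 and Ces2b in 7. The column without a filter repeats the main analysis, whose filter removed no gene. The replicate block and the authors' false discovery rate gave 32 and 29 calls.

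The chart of calls by setting also holds fits that leave out a library. These have 1 residual degree of freedom, against 2 in the main analysis, which alone can remove calls. How far a call rests on a single library therefore cannot be read from them. Without any 1 of the 4 libraries, Gpx3, Alox5, Aldh3a1 and Aox4 each lost their call, and 0 listed genes with reads in both groups were called, Vdr, Abcb1a and Abcc2 included, against 412 with all 4 libraries. Without either PD library Ces2b was the only call among the 41 genes, and without either PC library Ugt1a10, Kcnj6 and Cyp17a1 were the only calls. Each of these last 4 genes is at 0 reads in both libraries of the group left whole, where the spread is 0. All 41 genes kept their direction in every setting that gave a value, which their non-overlapping groups nearly fix.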

How the data were processed

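Messenger RNA levels were measured by sequencing in 4 libraries, PD replicates 1 and 2 and PC replicates 1 and 2, grouped by the treatment in the labels. The authors deposited 1 table with log2 values per library, log2 fold changes, and p-values with false discovery rates of their own test, per the file headers. The deposited log2 values are the log2 of reads divided by a size factor, plus 1: undoing the log gave whole reads for 100% of values within 0.001 reads, with size factors of 1.0313, 1.0911, 1.207 and 0.8406. Bowtie 0.12.2 and mm9 are named in the submitters' processing notes; for the counting tool, annotation, strand setting and test the sources used here give nothing. The table holds 1593 genes selected on this comparison, of 31432 tested. Other genes are not analysed here.

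limma 3.58.1 (R 4.3.3) was fitted to log2(value + 1) over all listed genes with a trended prior, no replicate block and 2 residual degrees of freedom, after a filter at a mean of 1 normalized read that removed none. Unlisted genes were taken to have larger p-values in the Benjamini-Hochberg adjustment. The spread came from genes selected for a small p, which can make it too small. Groups at 0 reads were set to a floor of 3 reads per library, 2.83 normalized reads in PD and 3.03 in PC, which covers counting error only.

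The genes, lists and alternatives were chosen with earlier results of these data known, and the grouping by role after the values were seen. Values in every library, a fold and a test are given for each gene called, each with a mean of at least 100 normalized reads and each at 0 in a group; others stand for a role. Annotation came from GENCODE M21 on GRCm38, another build than the authors' mm9, and no coordinate of the files was used. Coding sequences were aligned with Biopython 1.88.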

Additional observations from a re-analysis of the deposited data

How the results depend on the processing

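limma called 8 of the 41 genes (3 higher, 5 lower) and 495 listed genes, and 14 alternatives were run. Without each replicate in turn, 1 to 3 of the 41 were called, 0 to 3 higher and 0 to 1 lower, and 33 to 61 of all listed genes. With 1 library alone in a group, these fits have 1 residual degree of freedom and take its spread to be that of the other group. At a pseudocount of 10 lower calls were 8, and with voom on recovered reads 9. Over all listed genes lower calls also grew, from 316 in the main analysis to 392 and 429. A filter at a mean of 10 normalized reads left 36 of the 41 genes and 0 higher calls (4 at an unadjusted p under 0.05), because it removed Cyp17a1, Kcnj6 and Ugt1a10. At that filter lower calls were 7, and 585 listed genes were called. Without size factors, chosen after seeing the data, 1 of the 41 was called (1 higher, 0 lower, against 31 lower at an unadjusted p under 0.05) and 64 listed genes. The untrended prior of limma called 0 of the 41, 0 higher and 0 lower, and 1 listed gene. An adjusted p under 0.01 called 0, 0 and 0, and 2 listed genes. All 41 had an unadjusted p under 0.05 in both, as did 1487 and 1541 of the 1593 listed genes. The selection of the table nearly fixes such counts. The authors' false discovery rate called 29 of the 41, 26 of them lower, and 1119 listed genes. No gene of the 41 reversed.

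The replicate block called 32 of the 41 (5 higher, 27 lower) and 1176 listed genes. The numbers were not taken to pair the libraries, since the deviations of same-numbered libraries had Pearson's r of -0.0034 across 597 genes with a mean of at least 100, and a lost or gained call under the block is not read as a weaker or stronger effect. A planned quasi-likelihood count test on the recovered reads was not run, and voom was the only test run on those reads with the size factors. Low depth limits the genes under 10 normalized reads: these are 5 of the 41, Fmo1 and the 4 genes at 0 reads in a group. The latter (Cyp17a1, Kcnj6, Ugt1a10 and Ces2b) rest on 7 to 21 reads per library in the other group.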

Other observations

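The 2 genes that matched the serotonergic synapse term but were dropped for also carrying the neuroactive receptor text are both serotonin receptor genes. Htr4, a receptor coupled to cyclic AMP production, was at 18.4 and 31.2 normalized reads in PD and at 4.14 and 0 in PC. Htr5a, an inhibitory receptor, was at 19.4 and 12.8 in PD and at 33.1 and 38.1 in PC. Their log2 differences were -3.46 (SE 0.85) and 1.12 (SE 0.38), with no call for either gene (limma, Benjamini-Hochberg adjusted p = 0.28 and 0.703).

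By KEGG term, 14 of 15 arachidonic acid genes, 13 of 14 serotonergic synapse genes and 10 of 12 chemical carcinogenesis genes had lower values in PC. So did 5 of 6 linoleic acid, 7 of 9 steroid hormone, 5 of 6 retinol and 7 of 9 xenobiotic genes. These counts stand beside 82.9% of the 41 genes and 61.5% of all listed genes. A gene can count under several terms, so the terms are not separate results. Among 14 drug metabolism genes 10 had lower values and 4 higher, namely Dpyd, Gstt1, Hprt and Ugt1a10. Ces2b, Ces2e and Hsd11b2 lie within 679 kb of each other on chromosome 8, and all 3 had lower values in PC.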
